A study of Homo sapiens with 2 samples.

Results

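The proteasome is the protease complex that degrades ubiquitin-tagged proteins and supplies most of the peptides that MHC class I molecules present. Its barrel-shaped 20S core has outer rings of alpha subunits, which gate the entrance, and inner rings of beta subunits, of which PSMB5, PSMB6 and PSMB7 carry the catalytic sites. A 19S regulatory particle recognises, unfolds and feeds substrates into the core, other activators can take its place, and dedicated chaperones assemble both parts. Interferons induce PSMB8, PSMB9 and PSMB10, which replace the catalytic subunits to form the immunoproteasome.

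The genes described here are those with symbols from PSMA to PSMG followed by a number, taken from a table of FPKM, fragment counts scaled to transcript length and library depth. The rule found 48 genes among 24991 single-gene symbols, and 45 of the 48 were measured, meaning that FPKM reached 1 in either library, as it did for 11182 genes in all. RNA came from 2 cultures of PLC/PRF/5, an established line of human liver cancer (hepatocellular carcinoma) cells, both grown in DMEM with serum and kept under hypoxia. In 1 the cells carried an empty vector (EV) and in 1 they overexpressed NFX1, a transcription factor with zinc fingers. These are the vector library and the NFX1 library. The labels give neither the oxygen level, the time under hypoxia, the promoter of the construct nor whether the cells were a clone. The series' title concerns carnosine, lysosomes and the escape of tumours from immunity, and the comparison shows how proteasome transcripts differed between these 2 libraries.

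Each group had 1 library, so differences have no replicate check or test, they compare these 2 libraries, and the spread between cultures is not known. A change is the log2 ratio of FPKM + 1, NFX1 over vector, and a ratio is that of the FPKM themselves. The 95% interval given with a ratio is an exact (Clopper-Pearson) interval on estimated fragments and covers counting error only. The NFX1 library was an estimated 1.15 times as deep as the vector library, as worked out from the FPKM themselves. That estimate would include any scaling between the libraries, which is not given. NFX1 itself had 4.21 FPKM with the empty vector and 56.0 FPKM with NFX1, a ratio of 13.3. The 8 listed hepatocyte markers were all measured in these cells, among them SERPINA1 at 5935 and 6807 FPKM, although ALB, which encodes albumin, had 0.776 and 1.06 FPKM. In these bulk samples, fewer cells of a type and less RNA per cell cannot be told apart.

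Proteasome genes were abundant in both libraries and spread over a wide range of levels. The level was above the median of all measured genes for 43 of the 45 measured members in the vector library and for 44 in the NFX1 library. Together the 45 members made up 0.864% of the summed FPKM of measured genes in the vector library and 0.859% in the NFX1 library. The most abundant was PSMB6, the caspase-like catalytic subunit, at 602 and 677 FPKM. PSMA7, an alpha subunit, followed at 518 and 514 FPKM and PSMB4, a non-catalytic beta subunit, at 451 and 498 FPKM. At the low end of the measured members stood PSMB9 at 2.01 and 3.32 FPKM, PSMB10 at 9.89 and 10.3 FPKM, and PSME4, a nuclear activator, at 11.9 and 11.0 FPKM. The subunits of the constitutive core, which are present in equal numbers in the assembled particle, spanned 14.9-fold in FPKM in the vector library and 17.1-fold in the NFX1 library.

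**Figure D1:**
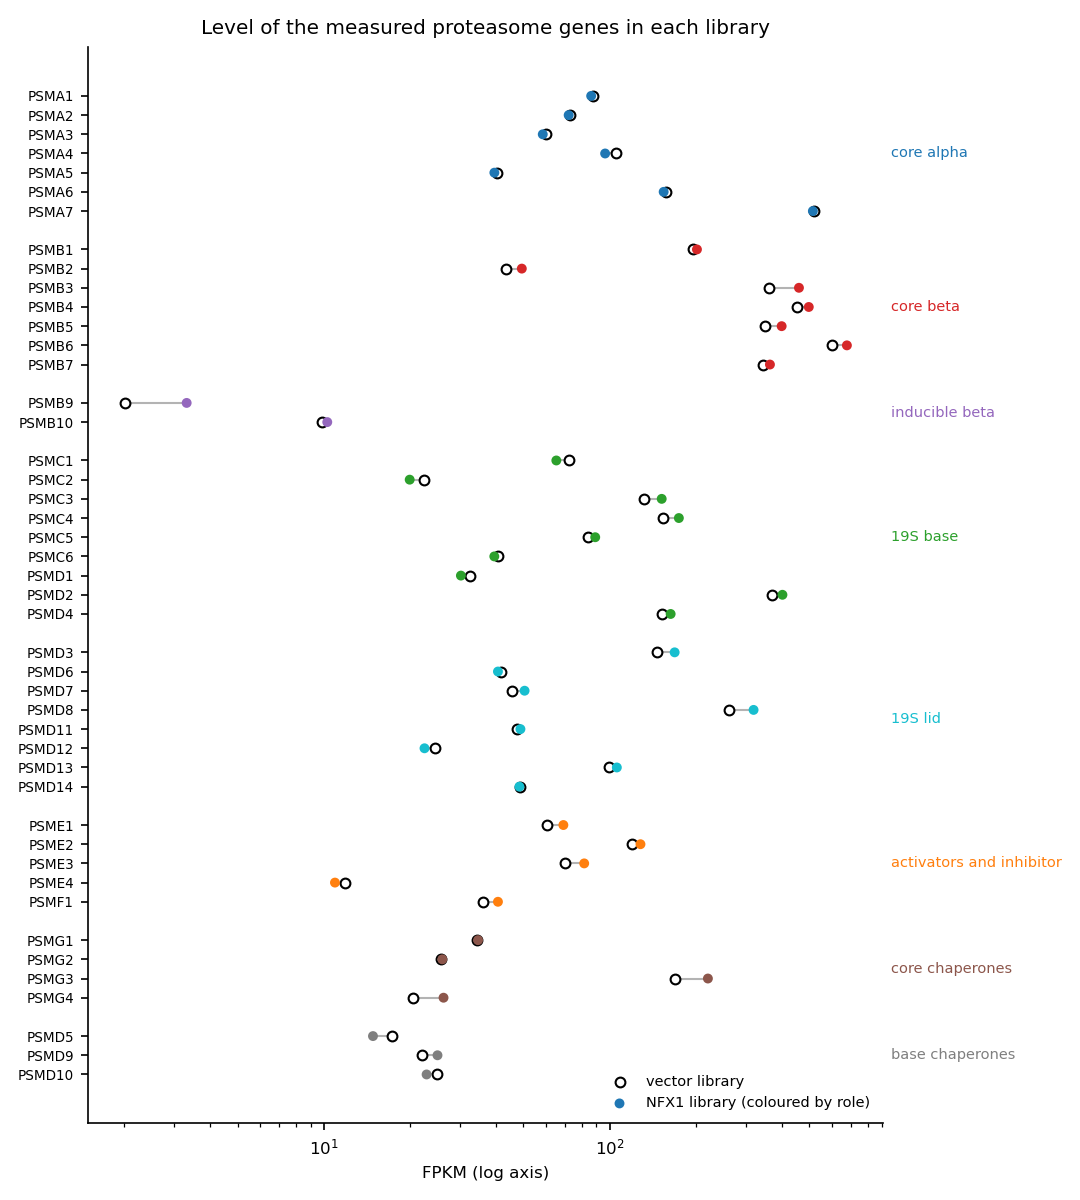
FPKM (log axis) of the 45 measured proteasome genes, by role; open circles are the vector library, filled circles the NFX1 library, 1 library each. The 2 circles of a gene lie close together compared with the distance between genes, from PSMB9 at 2.01 FPKM to PSMB6 at 602 FPKM in the vector library.

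Differences between the libraries were small. The median change of the 45 measured members was 0.08, beside 0.01 for all 11182 measured genes, and 28 members were higher and 17 lower in the NFX1 library. Among genes that reached 5 FPKM in either library, the medians were closer, at 0.07 for members and 0.05 for all genes. With the libraries scaled to equal upper quartiles, 23 members were higher and 22 lower. The median was then 0.01 for members and -0.05 for all genes. Of all measured genes, 52.0% were higher and 48.0% lower. A value at least 25% higher on the scale of FPKM + 1 was found for 4 members, PSMB9, PSMG3, PSMG4 and PSMB3, and for 6.12% of all measured genes. None of the 45 was at least 20% lower, which is the same distance downward on a log scale, against 2.3% of all measured genes. Both counts of members are near their background. No member reached 1.5-fold on this scale. The counting interval of the ratio lay above 1 for 22 members and below 1 for 7, against 29.1% and 18.3% of 10971 measured genes with a known transcript. Of 46 members tested in the authors' deposited table, none was marked as significant. The lowest p among them in the authors' deposited table was 0.0673, for PSMB9, with a q of 0.999.

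**Figure D2:**
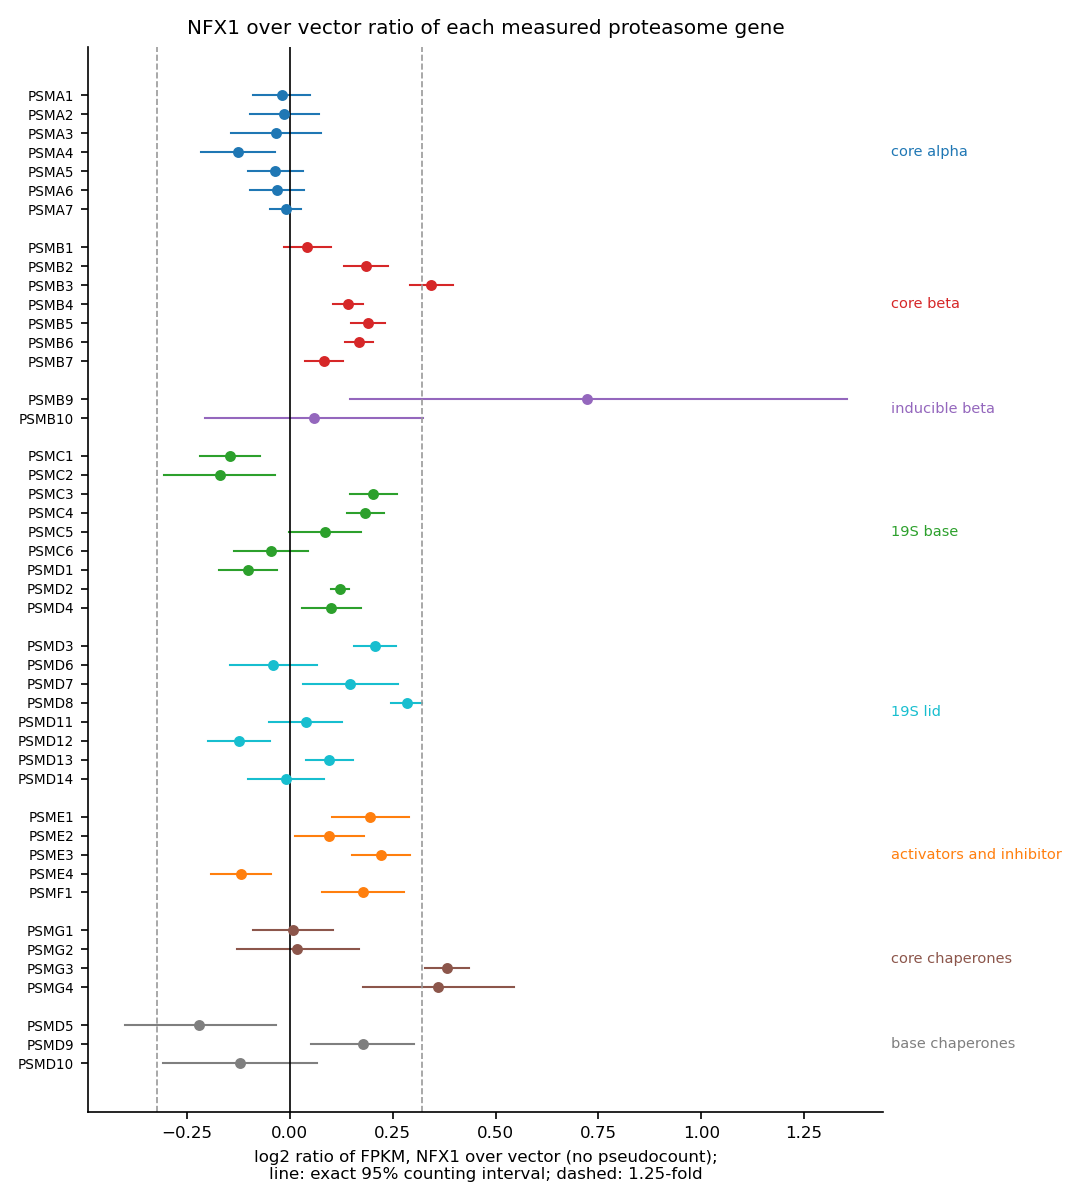
Log2 ratio of FPKM, NFX1 over vector without a pseudocount, for each measured proteasome gene, with its exact 95% counting interval; dashed lines mark 25% higher and 20% lower. As deposited, all 7 alpha subunits lie left of 0 and all 7 constitutive beta subunits right of it (4 and 6 of 7 once the trend on base composition is removed), and the interval of PSMB9 is the widest.

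The alpha and beta subunits of the constitutive core lay on opposite sides of 0 in the values as deposited, but not once a trend on base composition, described below, was removed. All 7 alpha subunits, PSMA1 to PSMA7, were lower in the NFX1 library as deposited and with the libraries scaled to equal upper quartiles. Removal of that trend left 4 of 7 lower. As deposited, the median change of the 7 was -0.03, with a range from -0.12 to -0.01. The differences were slight, and the counting interval of the ratio included 1 for all of them but PSMA4. PSMA4 had 105 FPKM with the empty vector and 96.5 FPKM with NFX1, a ratio of 0.917 (95% interval 0.860 to 0.976). PSMA7, by far the most abundant alpha subunit, had 518 and 514 FPKM, a ratio of 0.993 (0.968 to 1.02). PSMA6 had 158 and 155 FPKM, PSMA1 had 87.4 and 86.3 FPKM, and PSMA2 had 72.6 and 72.0 FPKM. The lowest levels of the ring were those of PSMA3, at 59.8 and 58.4 FPKM, and PSMA5, at 40.5 and 39.6 FPKM. An alpha subunit was thus 12.8-fold more abundant than another in the vector library while none differed by more than a few percent between libraries, apart from PSMA4.

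The 7 constitutive beta subunits were all higher in the NFX1 library as deposited, and 6 of 7 with the libraries scaled to equal upper quartiles or with that trend removed. Their median change was 0.17, with a range from 0.04 to 0.34. The counting interval lay above 1 for 6 of them, the exception being PSMB1, at 196 and 202 FPKM. PSMB3, a non-catalytic subunit, had 362 FPKM with the empty vector and 460 FPKM with NFX1, a ratio of 1.27 (1.22 to 1.32), and was the only constitutive core gene past the 25% limit. The 3 catalytic subunits were closer to each other. PSMB5, the chymotrypsin-like subunit, had 351 and 400.1 FPKM, a ratio of 1.14 (1.11 to 1.17). PSMB6 had a ratio of 1.12 (1.10 to 1.15). PSMB7, the trypsin-like subunit, had 344 and 364 FPKM, a ratio of 1.06 (1.03 to 1.09). Of the remaining non-catalytic subunits, PSMB4 had a ratio of 1.10 (1.08 to 1.13) and PSMB2 had 43.4 and 49.3 FPKM, a ratio of 1.14 (1.10 to 1.18). The summed FPKM of the beta subunits was 2.26 times that of the alpha subunits in the vector library and 2.59 times in the NFX1 library.

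That split went with base composition. The median GC content of the transcripts was 40.8% for the alpha subunits and 51.8% for the beta subunits. With all measured genes in 5 equal classes of GC content, the lowest class (median 40.3%) had a median change of -0.11, and 81.2% of its genes were lower. The highest class (median 62.7%) had a median change of 0.20, and 89.7% of its genes were higher. Over the 45 members, Pearson's r between change and GC content was 0.74 and Spearman's rho 0.80. These are values across genes of the same 2 libraries, which are not independent replicates, and r over all 10971 genes was 0.57. In the lowest class 7 of 8 members were lower, in the next class 7 of 10, in the middle class 3 of 17 and in the class above it none of 9. PSMB10 was the only member in the highest class. Compared with the median of their own class, 35 members lay above it and 10 below.

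**Figure D3:**
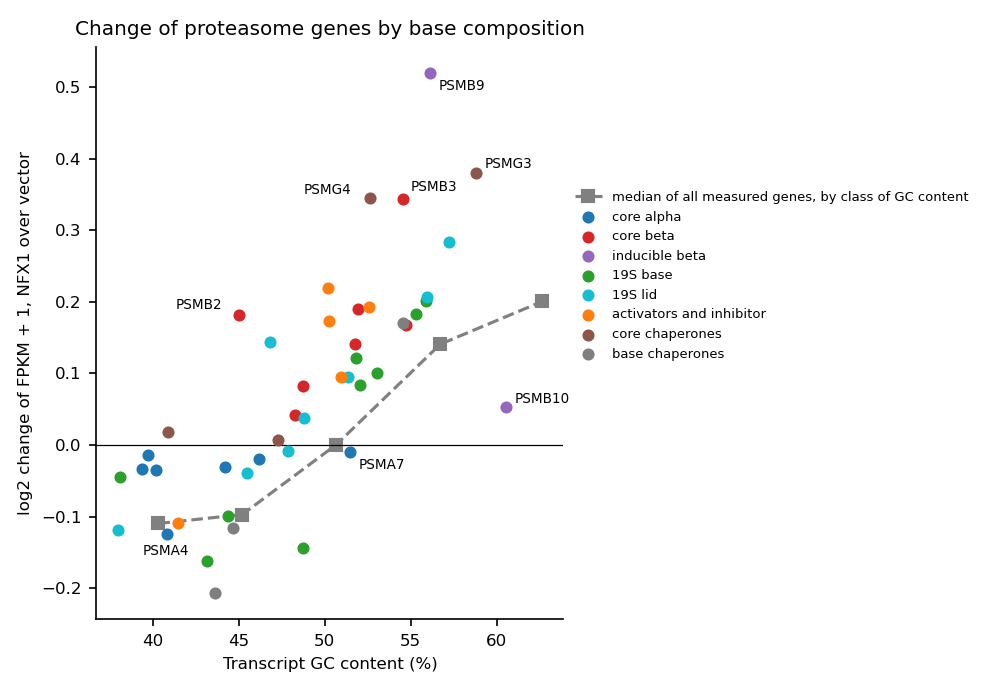
Change (log2 of FPKM + 1, NFX1 over vector) of the 45 measured proteasome genes against the GC content of their transcripts; grey squares are the medians of all measured genes by class of GC content. The members follow the slope of the grey line, with the alpha subunits at its lower left, and PSMB2, PSMG4, PSMB3 and PSMB9 lie above it while PSMB10 lies below.

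Once a smooth trend on transcript GC content, length and level had been subtracted from the changes, the alpha and beta subunits overlapped. Their medians were then -0.00 and 0.03, with 4 of 7 alpha subunits lower and 6 of 7 beta subunits higher, and the beta subunits ranged from -0.01 to 0.26. Of all 10971 genes 50.3% were then higher and 49.7% lower, and of the 45 members 31 were higher and 14 lower, with a median of 0.03. The order of the core genes shifted. PSMA7, whose transcript has 51.5% GC, became the lowest alpha subunit at -0.12, below PSMA4 at -0.09. PSMB2, with 45.0% GC, became the highest constitutive beta subunit at 0.26, above PSMB3 at 0.18. PSMB6 was at -0.01 and PSMB4 at 0.03.

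**Figure D4:**
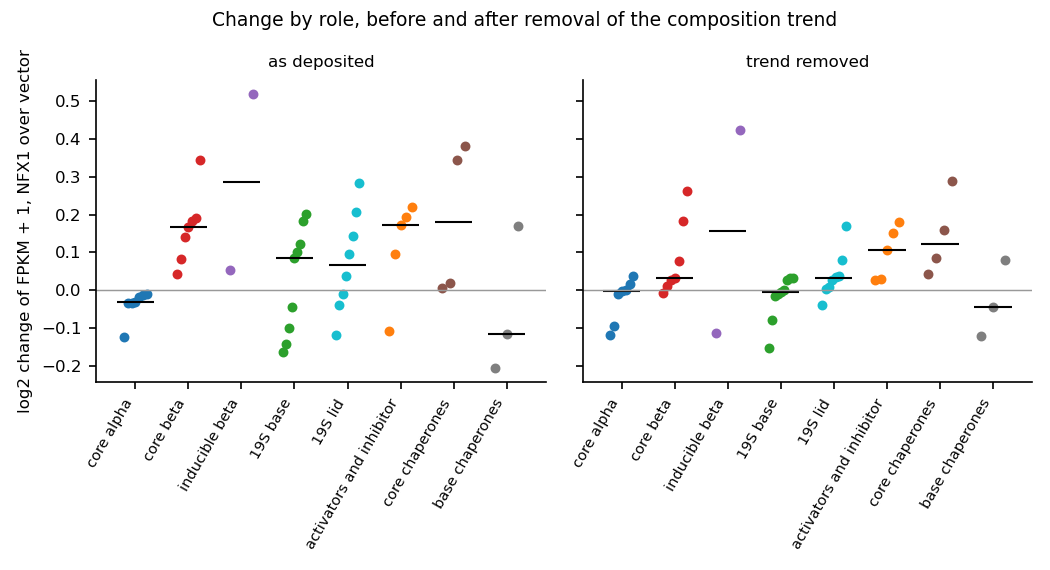
Change of each measured proteasome gene by role, as deposited (left) and after the trend on GC content, transcript length and expression was removed (right); points are genes and black lines medians. The gap between core alpha (median -0.03) and core beta (median 0.17) narrows to medians of -0.00 and 0.03, while PSMB9 goes from 0.52 to 0.42.

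The inducible subunits were scarce, and PSMB9 had the highest change of all members. PSMB9 lies on chromosome 6 (32821938 to 32827628, hg19) in the MHC region and replaces PSMB6 in the immunoproteasome. It had 2.01 FPKM with the empty vector and 3.32 FPKM with NFX1, a ratio of 1.65 and a change of 0.52. These values correspond to an estimated 37 and 71 fragments, so that the interval of the ratio was wide, from 1.11 to 2.56. After removal of the trend its change was 0.42, and it was then the only member at least 25% higher. PSMB10 (chromosome 16, 67968407 to 67970780), which replaces PSMB7, had 9.89 and 10.3 FPKM, a ratio of 1.04 (0.867 to 1.251), and its change of 0.05 was -0.11 after removal of the trend. PSMB8, which replaces PSMB5, was below the limit of 1 FPKM, at 0.520 and 0.436 FPKM. With an estimated 16 fragments in each library, its ratio of 0.839 had an interval from 0.407 to 1.86. Thus 1 of the 3 was higher beyond counting error, against 29.1% of 10971 measured genes, so that this count is near its background. The change of the other two was not detectable at this depth.

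Set against their constitutive counterparts, all 3 inducible subunits were rare in both libraries. PSMB8 reached 0.148% of the level of PSMB5 in the vector library and 0.109% in the NFX1 library. PSMB9 reached 0.334% and 0.490% of the level of PSMB6, and PSMB10 reached 2.88% and 2.83% of the level of PSMB7. White blood cells express the inducible subunits, so their markers were examined. PTPRC and CD3E were listed at 0 in both libraries, and CD14 and ITGAM were below 1 FPKM. CD68 (48.9 and 52.6 FPKM) and LYZ (49.2 and 47.9 FPKM) were the 2 measured among 7 leukocyte markers. The summed level of all 7 was 98.8 FPKM with the empty vector and 101 FPKM with NFX1, and its part in the values of PSMB9 was not tested. PSMA8 and PSMB11, core subunits known from testis and thymus, were not expressed at a measurable level. PSMA8 was listed at 0 in both libraries, where 3 fragments would give 0.0597 and 0.0520 FPKM, and PSMB11 was listed at 0 and at 0.0294 FPKM, an estimated 2 fragments.

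**Figure D5:**
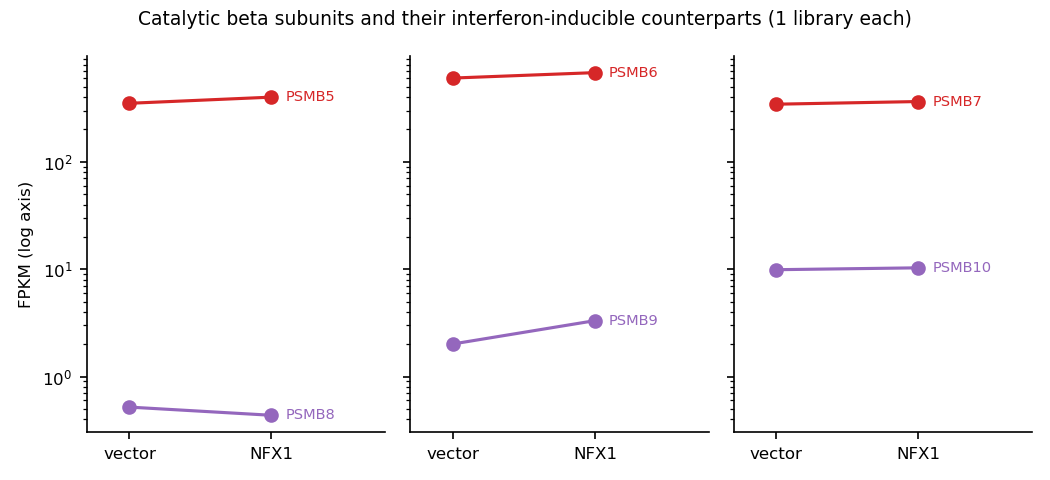
FPKM (log axis) of each catalytic beta subunit (red) and of the inducible subunit that replaces it (purple) in the vector and the NFX1 library, 1 library each. Each inducible gene lies far below its counterpart in both libraries, from 2.88% for PSMB10 down to 0.148% for PSMB8 in the vector library.

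Genes that act upstream of the inducible subunits, activators and repressors alike, went in both directions. Of 16 listed genes of interferon and NF-kappa-B signalling, 12 were measured, 4 higher and 8 lower, with a median change of -0.09. For several of the 8 the counting interval of the ratio included 1. Of all measured genes, 48.0% were lower, and 49.7% with the trend removed. The limits on the scale of FPKM + 1 were passed by 6.12% of all measured genes upward and 2.3% downward. On that scale a single gene of the list was at least 25% higher and none at least 20% lower. That gene was IRF1, a transcription factor that acts on the PSMB9 promoter, at 6.72 and 8.65 FPKM, a ratio of 1.29 (1.04 to 1.60). Its change of 0.32, just past the limit, was 0.23 with the trend removed, which left no gene of the list past the limit upward and 11 of 12 lower. The kinase JAK1 had 47.9 and 38.3 FPKM, a ratio of 0.799 (0.774 to 0.824). Its ratio was thus past 20% lower, but its change of -0.316 on the scale of FPKM + 1 fell just short. The repressor IRF2 had 2.38 and 1.81 FPKM, a ratio of 0.761 (0.420 to 1.40) and a change of -0.27. NLRC5, the MHC class I transactivator, was below the limit at 0.153 and 0.203 FPKM. Of 15 listed genes of peptide loading, 12 were measured, 4 higher and 8 lower, and none of them reached the 25% limit. TAP1, the peptide transporter gene that stands head to head with PSMB9, had 23.5 and 25.4 FPKM, a ratio of 1.08 (1.01 to 1.16), and its partner TAP2 had 20.5 and 24.0 FPKM. With the trend removed, 10 of the 12 were lower, with a median of -0.13, and TAP1 turned from 0.11 to -0.02 while TAP2 was at 0.27. ERAP1, which trims peptides, had 9.50 and 7.51 FPKM, with an interval of the ratio from 0.599 to 1.03. The chaperone CANX had 216 and 181 FPKM, and HLA-F 17.4 and 20.9 FPKM.

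The promoters of the inducible genes are shown because PSMB9 alone among them had a counting interval above 1. That interval overlapped those of PSMB8 and PSMB10, and whether PSMB9 differs from them was not tested. The windows run from 250 bases before to 50 bases after a RefSeq start (GRCh38.p14), 5′ to 3′ on the gene's strand. Capitals mark matches on either strand to CCAAT (bound by NF-Y), TGACNNNGC (antioxidant response element, bound by NFE2L1 and NFE2L2), the GAAA pair (2 copies of GAAA with any 2 bases between, bound by interferon regulatory factors), TTCNNNGAA (STAT factors) and GGGCGG (GC box). The windows are PSMB9 (chr6:32853942-32854241, + strand), the adjoining TAP1 (chr6:32853655-32853954, - strand), PSMB10 (chr16:67936801-67937100, - strand) and the window of PSMB8 that holds the interferon motif (chr6:32843998-32844297, - strand).
PSMB9: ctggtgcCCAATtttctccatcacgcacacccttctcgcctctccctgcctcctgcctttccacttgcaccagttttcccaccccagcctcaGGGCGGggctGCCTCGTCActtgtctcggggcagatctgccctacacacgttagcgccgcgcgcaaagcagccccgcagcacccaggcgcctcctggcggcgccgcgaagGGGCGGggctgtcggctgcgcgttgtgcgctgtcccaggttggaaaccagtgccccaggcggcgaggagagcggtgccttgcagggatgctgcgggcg
TAP1: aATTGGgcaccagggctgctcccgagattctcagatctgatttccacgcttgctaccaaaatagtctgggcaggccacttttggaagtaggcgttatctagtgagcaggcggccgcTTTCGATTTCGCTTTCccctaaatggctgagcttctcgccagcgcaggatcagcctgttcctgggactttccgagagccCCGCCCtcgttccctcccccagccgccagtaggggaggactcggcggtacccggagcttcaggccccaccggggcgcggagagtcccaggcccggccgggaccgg
PSMB10: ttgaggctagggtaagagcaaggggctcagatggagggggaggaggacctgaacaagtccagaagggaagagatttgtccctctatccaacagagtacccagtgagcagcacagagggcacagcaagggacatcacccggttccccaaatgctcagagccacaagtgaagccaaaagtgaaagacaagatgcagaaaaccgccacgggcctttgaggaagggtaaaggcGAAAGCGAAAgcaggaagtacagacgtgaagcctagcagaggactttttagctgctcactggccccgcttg
PSMB8: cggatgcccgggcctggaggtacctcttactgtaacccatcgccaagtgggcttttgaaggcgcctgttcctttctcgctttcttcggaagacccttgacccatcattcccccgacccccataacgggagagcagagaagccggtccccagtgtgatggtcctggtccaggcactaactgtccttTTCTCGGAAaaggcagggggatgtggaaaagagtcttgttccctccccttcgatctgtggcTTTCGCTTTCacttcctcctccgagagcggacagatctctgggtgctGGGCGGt
The PSMB9 and TAP1 windows share 13 bases, which hold a CCAAT match counted in both. The PSMB9 window holds 1 match to CCAAT, 1 to TGACNNNGC and 2 to GGGCGG, and neither the GAAA pair nor TTCNNNGAA. The TAP1 window holds 2 overlapping matches to the GAAA pair, and the PSMB10 and PSMB8 windows hold 1 each. The 2 in the TAP1 window lie upstream of the PSMB9 window. The lack of a GAAA pair at PSMB9 therefore describes its window and not the region between the 2 genes. The other PSMB8 window has only a GC box. A match is a description of these letters and not of binding.

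Windows were found for 42 of the 48 members, 51 in all, because some genes have several starts, whose windows can overlap. None was used for PSMA7, PSMB1, PSMB6, PSMB7, PSMD4 and PSMG3. The GAAA pair was present in 13.7% of the 51 windows against 3.57% of all 35116 windows. It occurred in 7 member genes, PSMA4, PSMB4, PSMB8, PSMB10, PSME1, PSME2 and PSMG4, of which 4 encode subunits known to be induced by interferon. TGACNNNGC was present in 29.4% of the members' windows and 13.3% of all windows, CCAAT in 39.2% and 34.6%, TTCNNNGAA in 15.7% and 7.66%, and GGGCGG in 68.6% and 45.0%. The 15 measured members with TGACNNNGC had a median change of 0.08 and the 24 without it 0.05, and after removal of the trend both medians were 0.03. For the 6 measured members with the GAAA pair the median change was 0.12 and for the 33 without it 0.02, and both were 0.03 after removal of the trend.
The window of PSMB3 (chr17:38752491-38752790, + strand), the constitutive core gene with the highest change, is shown beside the first of the 3 listed for PSMA4 (chr15:78540155-78540454, + strand), the core gene with the lowest, with the same motifs in capitals.
PSMB3: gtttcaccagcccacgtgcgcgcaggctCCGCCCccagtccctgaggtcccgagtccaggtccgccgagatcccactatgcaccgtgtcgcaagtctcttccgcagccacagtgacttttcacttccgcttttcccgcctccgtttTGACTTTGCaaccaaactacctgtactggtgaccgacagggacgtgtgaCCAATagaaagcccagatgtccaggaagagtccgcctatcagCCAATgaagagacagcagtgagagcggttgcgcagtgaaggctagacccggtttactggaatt
PSMA4: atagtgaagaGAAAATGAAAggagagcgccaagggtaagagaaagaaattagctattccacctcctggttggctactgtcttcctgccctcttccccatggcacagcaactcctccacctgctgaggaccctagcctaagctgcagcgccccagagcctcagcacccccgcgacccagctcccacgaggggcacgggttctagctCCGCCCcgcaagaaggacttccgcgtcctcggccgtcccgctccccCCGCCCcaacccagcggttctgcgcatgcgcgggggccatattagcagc
PSMB3 has 2 matches to CCAAT, 1 to TGACNNNGC and 1 to GGGCGG, and the PSMA4 window has 1 to the GAAA pair and 2 to GGGCGG. The last of the PSMA4 windows, not shown, also holds 1 match to CCAAT and 1 to TGACNNNGC, so that these motifs are found at both genes.

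The 19S regulatory particle had higher and lower genes in both of its parts, the base and the lid. Of its 17 members 10 were higher and 7 lower, with a median change of 0.08, or 0.01 without the trend. In the base 5 of 9 genes were higher as deposited and 4 of 9 with the trend removed, and in the lid 5 of 8 and 7 of 8; the difference between the parts was not tested. The base, which contacts the core, contains a ring of 6 ATPases that unfold substrates, and 3 of the 6 were higher and 3 lower. PSMC3 had 132 FPKM with the empty vector and 152 FPKM with NFX1, a ratio of 1.15 (1.11 to 1.20). PSMC4 had 154 and 175 FPKM, a ratio of 1.14 (1.10 to 1.17). PSMC5 had 84.0 and 89.1 FPKM, with an interval that included 1. On the lower side, PSMC1 had 72.1 and 65.2 FPKM, a ratio of 0.904 (0.859 to 0.951), and PSMC2 had 22.5 and 19.998 FPKM, a ratio of 0.889 (0.810 to 0.976). PSMC6, at 40.8 and 39.5 FPKM, did not differ beyond counting error. After removal of the trend PSMC3, PSMC4, PSMC5 and PSMC6 lay between -0.01 and 0.03. PSMC1 was then at -0.15, the lowest of all members, but its counts are uncertain because GENCODE names 13 pseudogene copies of it.

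Among the non-ATPase subunits of the base, the large scaffold subunit PSMD2 had 370.1 and 403 FPKM, a ratio of 1.09 (1.07 to 1.10). The other scaffold subunit, PSMD1, had 32.4 and 30.2 FPKM, a ratio of 0.932 (0.887 to 0.979). The transcripts of these paired scaffolds thus stood 11.4-fold apart in the vector library. PSMD4, a ubiquitin receptor, had 153 and 164 FPKM, a ratio of 1.07 (1.02 to 1.13), and its change turned from 0.10 to -0.02 with the trend removed. ADRM1, the other ubiquitin receptor of the base, which falls outside the symbol rule, had 313 and 381 FPKM, a ratio of 1.21 (1.19 to 1.24). Its change of 0.28, once the trend was subtracted, became 0.00.

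The lid removes ubiquitin chains. PSMD8 had the highest change, with 262 and 319 FPKM, a ratio of 1.22 (1.19 to 1.249), and PSMD3 had 146 and 169 FPKM, a ratio of 1.15 (1.11 to 1.20). PSMD14, the deubiquitinase, was level at 48.7 and 48.4 FPKM, a ratio of 0.994 (0.932 to 1.06). Its inactive partner PSMD7 had 45.6 and 50.5 FPKM, a ratio of 1.11 (1.02 to 1.20). PSMD13 had 99.2 and 106 FPKM, a ratio of 1.07 (1.03 to 1.11), and PSMD11 had 47.5 and 48.8 FPKM, with an interval that included 1. PSMD6, at 41.9 and 40.7 FPKM, also had an interval that included 1, whereas PSMD12, at 24.5 and 22.5 FPKM, had a ratio of 0.918 (0.872 to 0.967). After removal of the trend the 7 higher lid genes ran from 0.00 for PSMD14 to 0.17 for PSMD7, and PSMD12 was at -0.04.

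The activators and the inhibitor were higher in 4 of 5 cases, with a median change of 0.17. Without the trend the median was 0.11 and all 5 were higher. Of all measured genes, 52.0% were higher as deposited and 50.3% with the trend removed. Whether these 5 genes differ from that share was not tested. PSME1 and PSME2 encode the interferon-inducible subunits of the cytosolic 11S cap and are neighbours on chromosome 14 (24605367 to 24610797 and 24612574 to 24615855, hg19). PSME1 had 60.2 and 69.0 FPKM, a ratio of 1.15 (1.07 to 1.22), and PSME2 had 120.1 and 128 FPKM, a ratio of 1.07 (1.01 to 1.13). The level of PSME1 was 0.501 times that of PSME2 in the vector library and 0.537 times in the NFX1 library. PSME3, the related nuclear cap, had 69.9 and 81.6 FPKM, a ratio of 1.17 (1.11 to 1.23) and the highest change of this group. PSMF1, an inhibitor of the core, had 36.0 and 40.7 FPKM, a ratio of 1.13 (1.06 to 1.21). PSME4, a nuclear activator whose transcript is long and poor in GC, was lower at 11.9 and 11.0 FPKM, a ratio of 0.921 (0.876 to 0.969). Its change of -0.11, once the trend was subtracted, became 0.03.

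Of the 4 chaperones of the core, 2 were at least 25% higher in the NFX1 library as deposited and none with the trend removed. As deposited, 6.12% of all measured genes were at least 25% higher, and a count among 4 genes was not tested against that share. PSMG1 and PSMG2 form a dimer that starts the assembly of the alpha ring, and PSMG3 and PSMG4 form the dimer that acts next. PSMG3 had 169 FPKM with the empty vector and 221 FPKM with NFX1, a ratio of 1.30 (1.26 to 1.35). PSMG4 had 20.5 and 26.3 FPKM, a ratio of 1.28 (1.13 to 1.46). Both lay higher in the NFX1 library, although they stood 8.28-fold apart in level in the vector library. PSMG1, at 34.5 and 34.7 FPKM, and PSMG2, at 25.7 and 26.0 FPKM, did not differ beyond counting error. With the trend removed, the changes were 0.16 for PSMG3, 0.29 for PSMG4, 0.04 for PSMG1 and 0.08 for PSMG2. Whether the 2 dimers differ from each other, or from the chaperones of the base, was not tested. POMP, which completes the core and is outside the symbol rule, was level at 77.3 and 77.1 FPKM.

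The 3 chaperones of the base went in different directions. PSMD9 had 22.1 and 25.02 FPKM, a ratio of 1.13 (1.04 to 1.23). PSMD5 had 17.3 and 14.9 FPKM, a ratio of 0.859 (0.757 to 0.976), and its change of -0.21 was the lowest of all members. PSMD10, also known as gankyrin and as an oncoprotein of liver cancer, had 24.9 and 22.9 FPKM, with an interval of the ratio from 0.808 to 1.05. PAAF1, another chaperone of the base, had 12.3 and 13.4 FPKM, a ratio of 1.09 (0.969 to 1.23). After removal of the trend the changes were 0.08 for PSMD9, -0.12 for PSMD5, -0.04 for PSMD10 and 0.14 for PAAF1.

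Further genes of the pathway came from lists chosen by function. Of 19 listed proteasome-associated proteins, 16 were measured, 7 higher and 9 lower, and none reached 25% higher or 20% lower. Those named for the size of their changes were ADRM1, the ubiquitin ligase UBE3C (18.7 and 16.0 FPKM) and the deubiquitinase USP14 (36.0 and 31.1 FPKM). Of 11 listed regulators of proteasome genes, 9 were measured, with 1 at least 20% lower and none at least 25% higher. Among all measured genes, 2.3% were at least 20% lower and 6.12% at least 25% higher. NFE2L1, the transcription factor that restores proteasome genes when the proteasome is inhibited, had 111 and 115 FPKM, a ratio of 1.03 (0.956 to 1.11), and NFE2L2 had 19.8 and 19.9 FPKM. With the trend removed, the change of NFE2L1 turned from 0.05 to -0.10. NGLY1, the glycanase needed to activate NFE2L1, was the gene past the limit, at 22.6 and 17.0 FPKM, a ratio of 0.751 (0.696 to 0.809). Its change of -0.39, once the trend was subtracted, became -0.30, which no longer passed the 20% limit. Of 18 listed ubiquitin and recycling genes, 17 were measured, 11 higher and 6 lower. The mitotic ubiquitin-conjugating enzymes UBE2S (246 and 319 FPKM) and UBE2C (172 and 220 FPKM) were the 2 at least 25% higher, and BAG6, a chaperone of proteins bound for degradation, had 158 and 191 FPKM. With the trend removed neither enzyme passed the 25% limit, since UBE2S went from 0.37 to 0.09 and UBE2C from 0.35 to 0.27, and BAG6 went from 0.27 to 0.06.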

How the data were processed

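The members and gene lists were chosen with earlier results of these data known. The reads were handled with Cufflinks 2.2.1 and TopHat2 2.1.0 on hg19, per the submitters' processing notes. The annotation, strand and scaling are not given in the sources used here. Per library the authors deposited FPKM, per the file headers. They also deposited a p-value, a q-value, a test score and a log2 ratio per row. Groups came from the genotype label, 1 library each.

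Rows with no symbol or several symbols were left out, and the row with the highest mean stood for a symbol. Among members only PSMB8 and PSMB9 had further rows, 14 on alternative MHC haplotypes, all at 0. Changes used a pseudocount of 1 and were taken over genes that reached 1 FPKM in either library. A limit of 25% higher or 20% lower stood in for a test. Loci start from 1. Any member could be named, and of other lists up to 4 genes by size of change plus NFX1, IRF1, NLRC5, TAP1, NFE2L1, NFE2L2, POMP, ADRM1 and PAAF1; markers were named as listed. A few genes that this rule selects are not reported here.

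Fragments were estimated from FPKM, because 7 single-exon receptor genes per library with a single fragment each gave its worth as 36.6 M and 42.0 M fragments, after 274 bp were taken off the length. Lengths and GC content were medians over a gene's GENCODE transcripts, matched by symbol or RefSeq synonym for 98.1% of measured genes and all 48 members. The trend came from additive cubic splines on transcript GC content, length and level, fitted to genes that differed by less than 2-fold. Counting was approximate for the 12 members with pseudogene copies in GENCODE and the 10 whose locus holds another gene or an antisense RNA. Steps were tested on simulated data. The software was scipy 1.17.1, pandas 2.3.3, numpy 2.4.6 and, for plots, matplotlib 3.10.9, under Python 3.11.15.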

Additional observations from a re-analysis of the deposited data

How the results depend on the processing

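With 1 library per group no replicate could be left out. No paired analysis was possible because each group has 1 library. Of 112 values recomputed under other settings, 102 moved by less than their counting error or, for counts, by no more than 1.5 times. Several settings, such as the summing of the rows of a symbol, left these values unchanged, and such settings add to this count. A value counted among the 102 could still change sign or lose most of its size. With equal upper quartiles the median of all members went from 0.08 to 0.01 and that of the assembly chaperones from 0.02 to -0.05. PSMB10 went from 0.05 to -0.01, and to -0.11 with the trend removed. The median of the inducible subunits went from 0.29 to 0.05 without the filter on low values. The median of the constitutive core reversed from 0.02 to -0.057 when the libraries were scaled to equal upper quartiles, which put 7 alpha and 1 beta subunit on the lower side, moved the median of all genes to -0.05 and gave medians of -0.10 for the alpha and 0.09 for the beta subunits. Removal of the trend took the median of the 19S particle from 0.08 to 0.0083 and that of the beta subunits from 0.17 to 0.03. The number of members at least 25% higher went from 4 to 2 with a pseudocount of 5, to 1 with equal upper quartiles and to 1 with the trend removed. At limits of 1.5-fold and 2-fold it was 0. For these results the cause was not tested, except that a higher limit admits fewer genes by construction. PSMB9 lay higher in the NFX1 library under every setting run, but several of these settings could not change its direction. A pseudocount or the summing of further rows at 0 cannot do so. Of the settings that could, centring on the median of all measured genes gave 0.51, equal upper quartiles 0.46 and removal of the trend 0.42. Medians of the alpha and beta subunits taken separately were added after the data had been seen. Depth limited PSMB8 and PSMB9.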

Other observations

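Antisense and neighbouring RNAs named after proteasome genes fall outside the symbol rule and were chosen after their values were seen. PSMG3-AS1, which starts beside PSMG3, had 2.01 FPKM with the empty vector and 2.53 FPKM with NFX1, a ratio of 1.26, while PSMG3 itself had a ratio of 1.30. PSMD5-AS1 had 3.72 and 3.26 FPKM, a ratio of 0.875, beside 0.859 for PSMD5. PSMA3-AS1 had 2.54 and 2.43 FPKM, a ratio of 0.956, beside 0.976 for PSMA3. In each of these 3 pairs the antisense RNA and the proteasome gene lay on the same side of 1. No counting interval was computed for these antisense RNAs. PSMD5 and PSMA3 are listed on the same locus as their antisense RNA, whereas PSMG3 is not. Whether reads were assigned by strand is not given in the sources used here. Reads from partners on the same locus thus cannot be told apart. PSMB8-AS1 was listed at 0 in both libraries and PSMD6-AS2 had 0.0360 and 0.0209 FPKM.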
